A study of Homo sapiens with 12 samples.

Results

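The genes described here are 8 regulators and markers of the melanocyte and neural crest lineage, chosen by symbol: MITF, TFAP2A, TFAP2B, SOX9, SOX2, NGFR, GPNMB and TYRP1, of 23497 genes in the deposited table. SOX10 and MLANA were not analysed here. RNA was sequenced from WM1366, a human melanoma cell line with mutant NRAS, as 3 drug-resistant daughter lines and their sensitive parent. Each daughter line was grown with a BRAF inhibitor and a MEK inhibitor: encorafenib plus binimetinib for the EB-resistant line, vemurafenib plus cobimetinib for the VC-resistant line and dabrafenib plus trametinib for the DT-resistant line. The sensitive line was grown in DMSO. Cells were seeded 72 h before lysis in medium with those additions. Each group had 3 libraries from independent experiments, numbered 2, 5 and 6, and library totals ran from 40491309 to 54495132 counts. The resistant cells were harvested in the presence of drug, and each drug pair is represented by 1 line, so resistance, drug exposure, culture history and drug pair cannot be told apart, and the spread reported is that between experiments on the same lines. The labels do not say that each line is 1 clone.

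Melanocytes arise from the neural crest, a migratory embryonic cell population whose identity is set by AP-2 and SOX transcription factors. MITF, the master regulator of the melanocyte lineage, binds M-box and E-box sequences in the promoters of pigment genes such as TYRP1, and both MITF and its relatives TFEB and TFE3 act on lysosomal genes. In melanoma, loss of MITF output and gain of the neurotrophin receptor NGFR are widely used to describe movement along this lineage, away from the pigmented state and towards a neural crest-like one.

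The 250 bases before the transcription start were read from RefSeq (GRCh38.p14), which had windows for 6 of the 8 members. Those of GPNMB and TYRP1 are shown because both windows hold M-box cores and both genes rose in some or all resistant lines. GPNMB rose in all 3, and TYRP1, with few counts, in the EB-resistant and DT-resistant lines only. The SOX2 window is shown because it holds the same core beside an AP-2 and a SOX motif. Capitals mark the matches to 5 motifs, each searched on both strands. The M-box core was CATGTG, which reads CACATG on the other strand. The E-box was CACGTG, the AP-2 motif GCCNNNGGC and the AP-1 motif TGANTCA. The SOX motif was ACAAAG, which reads CTTTGT on the other strand.
GPNMB, chr7:23246525-23246774, plus strand: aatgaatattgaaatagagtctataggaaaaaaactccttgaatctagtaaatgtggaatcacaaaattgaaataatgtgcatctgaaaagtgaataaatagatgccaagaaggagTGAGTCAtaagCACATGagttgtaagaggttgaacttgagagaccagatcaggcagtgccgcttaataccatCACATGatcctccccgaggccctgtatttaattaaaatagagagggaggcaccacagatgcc
TYRP1, chr9:12693135-12693384, plus strand: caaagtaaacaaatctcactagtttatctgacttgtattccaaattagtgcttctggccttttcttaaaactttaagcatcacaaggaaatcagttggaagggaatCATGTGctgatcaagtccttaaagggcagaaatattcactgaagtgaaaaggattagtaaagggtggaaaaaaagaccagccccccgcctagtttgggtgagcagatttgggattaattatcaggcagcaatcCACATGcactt
SOX2, chr3:181711675-181711924, plus strand: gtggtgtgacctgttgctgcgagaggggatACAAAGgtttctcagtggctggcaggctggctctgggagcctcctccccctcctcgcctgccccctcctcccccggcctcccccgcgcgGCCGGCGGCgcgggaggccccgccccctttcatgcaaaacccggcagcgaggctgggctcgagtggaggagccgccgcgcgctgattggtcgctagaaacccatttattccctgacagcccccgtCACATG

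The GPNMB window held the M-box core at positions -123 to -118 and -62 to -57 from the start, and an AP-1 motif at -134 to -128. The TYRP1 window held it at -144 to -139 and -11 to -6, and the SOX2 window at -6 to -1. These matches did not overlap one another. Among 35116 promoter windows of the same length, 9.42% held the M-box core at least once and 1.15% held it at least 2 times, 6.34% held the E-box, 19.8% the AP-2 motif, 6.57% the AP-1 motif and 13.7% the SOX motif. The windows of TFAP2A and TFAP2B held none of the 5 motifs, and of the windows of MITF only 1 held a match, to the SOX motif. The RefSeq starts of GPNMB and TYRP1 lie 10808 and 7946 bases inside the span that the deposited table gives these genes. MITF has several promoters, and the table holds 1 count for the whole gene, so its transcripts were not separated.

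Against the sensitive line the members moved in 2 directions. GPNMB and TFAP2A were higher in all 3 resistant lines, while SOX9, SOX2 and NGFR were lower in all 3. TFAP2B was detected in the EB-resistant line and had 0 counts in the other 9 libraries, TYRP1, with few counts in any group, rose in the EB-resistant and DT-resistant lines, and MITF rose by less than any other called member, in the VC-resistant and DT-resistant lines. Levels are given as CPM, read counts on a common scale after TMM scaling of the library totals, and a gene is said to rise or fall where edgeR's quasi-likelihood test gave an adjusted p under 0.05 over the 17114 genes tested. In EB-resistant against sensitive cells 4 members were higher and 3 lower, where 28.5% of all genes tested were higher and 27.6% lower (56.1% in either direction). In VC-resistant against sensitive cells 3 were higher and 3 lower, where 27.6% of all genes were higher and 27.4% lower (55.0% in either direction). In DT-resistant against sensitive cells 4 were higher and 3 lower, where 29.8% of all genes were higher and 29.3% lower (59.1% in either direction). These comparisons share the sensitive libraries. The CPM ranges of the groups did not overlap for 7 members in EB-resistant against sensitive cells (64.7% of all genes tested), for 6 in VC-resistant (61.7%) and for 7 in DT-resistant against sensitive cells (63.7%). Most of the table was called in each of these comparisons, so the share of members called is read against that background, and the sizes of the changes and the levels carry the description. TFAP2B passed the filter on low counts only through the EB-resistant libraries, and TYRP1 mainly through them. NGFR passed it mainly through the sensitive libraries. The presence of these genes among those tested thus already follows from the libraries in which they are highest.

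**Figure D1:**
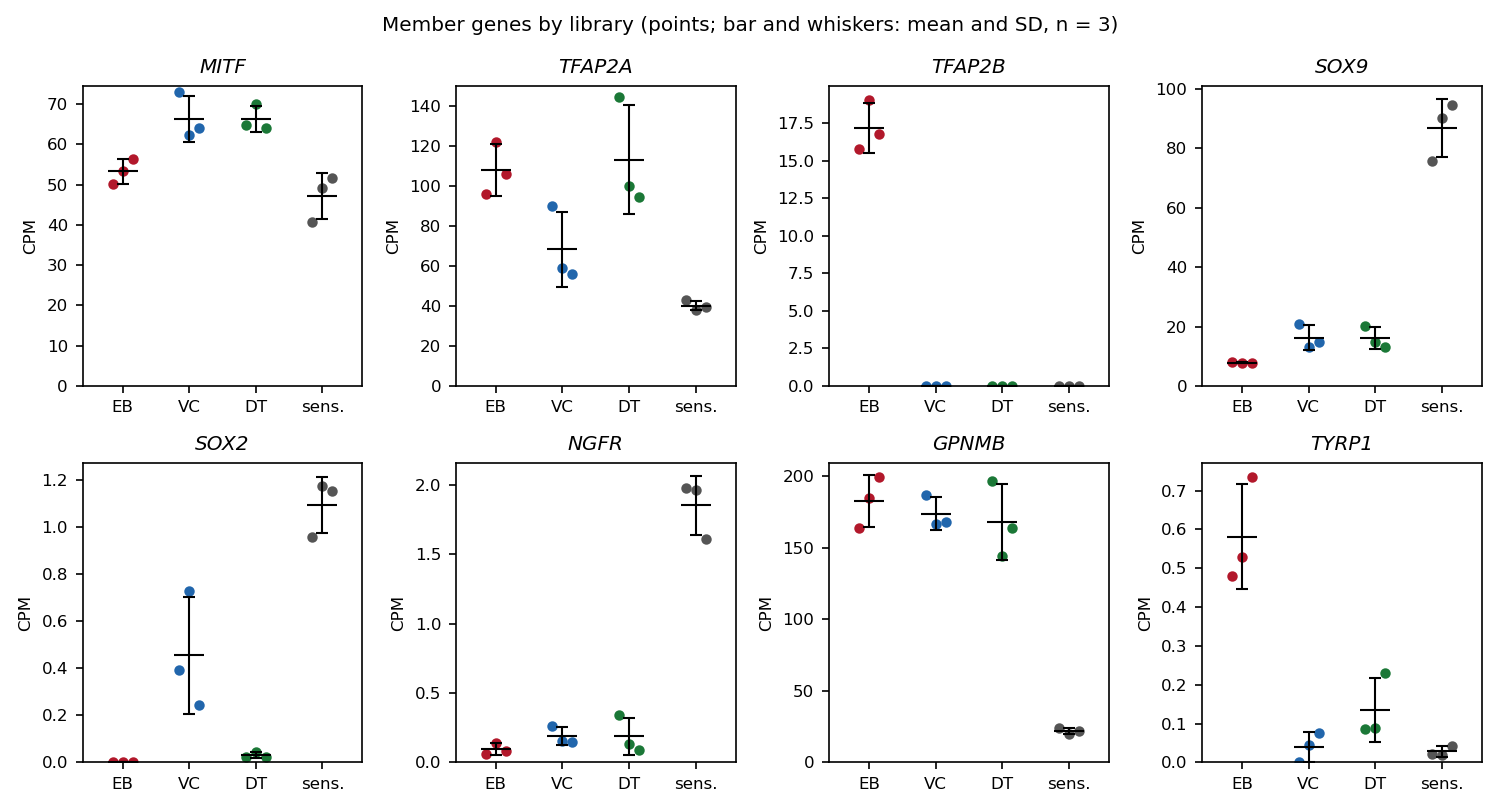
CPM of each of the 8 member genes (vertical axis, a separate linear scale from 0 for each gene) in the EB-resistant, VC-resistant, DT-resistant and sensitive lines. Points are single libraries, left to right replicates 2, 5 and 6, and the bar and whiskers are the mean and SD of 3 libraries. GPNMB and TFAP2A are above the sensitive libraries in all resistant libraries, SOX9, SOX2 and NGFR are below them, and TFAP2B has counts in the EB-resistant libraries only.

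Per kilobase of gene length, the scale on which genes can be compared, the order of the members changed between lines. In EB-resistant cells GPNMB stood highest at 30.9 ± 3.04 CPM per kb, followed by TFAP2A at 13.2 ± 1.60, MITF at 7.46 ± 0.424, TFAP2B at 2.79 ± 0.270 and SOX9 at 1.99 ± 0.0631 (SD, n = 3). In VC-resistant cells GPNMB had 29.4 ± 1.94, MITF 9.29 ± 0.797, TFAP2A 8.32 ± 2.29 and SOX9 4.14 ± 1.07 CPM per kb. In DT-resistant cells GPNMB had 28.5 ± 4.51, TFAP2A 13.8 ± 3.34, MITF 9.27 ± 0.462 and SOX9 4.09 ± 0.963 CPM per kb. In sensitive cells SOX9 stood highest at 22.1 ± 2.47, followed by MITF at 6.59 ± 0.804, TFAP2A at 4.90 ± 0.295 and GPNMB at 3.68 ± 0.356 CPM per kb. SOX9 was thus the most abundant of the 8 transcripts per length in sensitive cells and below GPNMB, TFAP2A and MITF in each resistant line, whereas GPNMB was below SOX9, MITF and TFAP2A in sensitive cells and the highest in each resistant line. NGFR, SOX2 and TYRP1 stayed under 0.5 CPM per kb in every group.

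MITF (chr3:69739464-69968336, plus strand, coordinates from the deposited table, hg38) was expressed in every library and varied little between groups. It measured 50.3, 53.3 and 56.4 CPM in EB-resistant replicates 2, 5 and 6. The VC-resistant replicates had 72.9, 62.3 and 64.0 CPM and the DT-resistant replicates 64.8, 70.1 and 64.0 CPM. The sensitive replicates had 40.7, 49.1 and 51.7 CPM. The VC-resistant and DT-resistant values all lay above the EB-resistant and sensitive values, and the EB-resistant and sensitive ranges overlapped. MITF rose in VC-resistant against sensitive cells by a log2 fold change of 0.49 (SE 0.094, adjusted p = 3.95e-04, edgeR) and in DT-resistant against sensitive cells by 0.49 (SE 0.094, adjusted p = 3.52e-04, edgeR). The EB-resistant difference of 0.18 (SE 0.094) did not pass the test (adjusted p = 0.121, edgeR), but it did without sensitive replicate 6 (log2 fold change 0.26, adjusted p = 0.0435, edgeR). That fit leaves out the highest sensitive library (51.7 CPM) and keeps the lowest, replicate 2 (40.7 CPM), so it favours a rise. By size, the change of MITF exceeded that of 22.5% of all tested genes in EB-resistant against sensitive cells, 53.4% in VC-resistant and 50.1% in DT-resistant cells.

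GPNMB, a transmembrane glycoprotein of melanosomes and lysosomes (chr7:23235967-23275108, plus strand), was the best expressed member in every resistant line, at about 8 times its level in the parent. The EB-resistant replicates had 163.7, 184.8 and 199.4 CPM. The VC-resistant replicates had 187.1, 166.9 and 167.7 CPM, and the DT-resistant replicates 196.8, 144.0 and 164.0 CPM. In sensitive replicates it measured 23.7, 19.6 and 21.9 CPM. The lowest resistant library was thus far above the highest sensitive one, and the 3 resistant lines overlapped one another. The log2 fold change against sensitive cells was 3.07 in EB-resistant (SE 0.12, adjusted p = 3.83e-11), 3.00 in VC-resistant (SE 0.12, adjusted p = 1.04e-10) and 2.95 in DT-resistant cells (SE 0.12, adjusted p = 7.56e-11, all edgeR). Among members detected in every library, GPNMB combined a large change with a high count, between 3082 counts summed over the sensitive libraries and 26422 over the EB-resistant ones.

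TYRP1, a melanosomal enzyme of eumelanin synthesis and a classical MITF target (chr9:12685439-12710285, plus strand), stayed close to the detection limit. It had 23, 26 and 35 counts in EB-resistant replicates 2, 5 and 6. It had 0, 2 and 4 counts in VC-resistant replicates and 4, 4 and 10 counts in DT-resistant replicates. Sensitive replicates had 1, 1 and 2 counts. The EB-resistant libraries all lay above the other 9, at a mean of 0.581 ± 0.136 CPM against 0.0284 ± 0.0131 CPM in sensitive cells (SD, n = 3 each). TYRP1 rose in EB-resistant against sensitive cells by a log2 fold change of 4.24 (SE 0.64, adjusted p = 3.91e-05, edgeR), while VC-resistant against sensitive cells differed by 0.57 (SE 0.95, adjusted p = 0.631, edgeR). The rise in DT-resistant against sensitive cells, 2.14 (SE 0.78, adjusted p = 0.0275, edgeR), did not pass the test without sensitive replicate 2 (2.00, adjusted p = 0.0721), sensitive replicate 5 (1.95, adjusted p = 0.0853) or DT-resistant replicate 6 (1.54, adjusted p = 0.149). The lncRNA LURAP1L-AS1 overlaps TYRP1 on the opposite strand and had 2486 counts in the 12 libraries against 112 for TYRP1. Its own counts summed to 730 in EB-resistant, 539 in VC-resistant, 684 in DT-resistant and 533 in sensitive cells. The library kit keeps strand, but the strand setting used for counting was not stated, so the TYRP1 counts are uncertain.

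TFAP2A and TFAP2B encode AP-2 alpha and AP-2 beta, related factors that bind the same motif and act early in neural crest induction. TFAP2A (chr6:10393186-10419659, minus strand) had 96.1, 122.1 and 106.0 CPM in EB-resistant replicates 2, 5 and 6. The VC-resistant replicates had 90.1, 58.9 and 56.2 CPM, and the DT-resistant replicates 144.9, 100.4 and 94.8 CPM. The sensitive replicates had 43.0, 38.3 and 39.5 CPM. All 9 resistant libraries lay above all 3 sensitive ones, and replicate 2 was the highest of both the VC-resistant and the DT-resistant libraries. TFAP2A rose against sensitive cells by a log2 fold change of 1.43 in EB-resistant (SE 0.20, adjusted p = 8.82e-05), 0.76 in VC-resistant (SE 0.20, adjusted p = 0.00676) and 1.495 in DT-resistant cells (SE 0.20, adjusted p = 6.46e-05, all edgeR). The antisense lncRNAs TFAP2A-AS1 and TFAP2A-AS2 lie within the gene, with 857 and 517 counts in the 12 libraries against 45979 for TFAP2A. TFAP2A-AS1 rose in EB-resistant against sensitive cells, at 2.69 CPM against 1.19 CPM. TFAP2A-AS2 fell in EB-resistant (0.886 CPM), VC-resistant (0.42 CPM) and DT-resistant cells (0.75 CPM), against 1.61 CPM in sensitive cells.

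TFAP2B (chr6:50818723-50847619, plus strand) had 757, 934 and 797 counts in EB-resistant replicates 2, 5 and 6, or 15.78, 19.01 and 16.75 CPM, and 0 counts in each VC-resistant, DT-resistant and sensitive library. A count of 0 in a library of this size allows a level of up to 3 counts, about 0.063 CPM in sensitive, 0.067 CPM in VC-resistant and 0.066 CPM in DT-resistant cells, which covers counting error only. Against that limit TFAP2B was at least 271-fold higher in EB-resistant than in sensitive cells (adjusted p = 8.44e-09, edgeR), at least 257-fold higher than in VC-resistant cells (adjusted p = 1.37e-08, edgeR) and at least 259-fold higher than in DT-resistant cells (adjusted p = 1.49e-08, edgeR). TFAP2B was tested only because of the EB-resistant libraries, so these p-values are no separate support for its presence there. No fold is given among the lines with 0 counts.

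With the detected paralogues TFAP2C and TFAP2E, the AP-2 family summed to 27.2 ± 3.16 CPM per kb in EB-resistant, 17.96 ± 3.38 in VC-resistant, 24.8 ± 3.74 in DT-resistant and 17.8 ± 0.523 in sensitive cells (SD, n = 3 each). TFAP2A made up 48.4% of that sum in EB-resistant, 45.8% in VC-resistant, 55.3% in DT-resistant and 27.6% in sensitive cells. TFAP2C, the family member best known from trophoblast and germ cells, made up 41.0%, 53.8% and 44.4% in EB-resistant, VC-resistant and DT-resistant cells and 72.0% in sensitive cells. TFAP2B contributed 10.3% in EB-resistant cells. The family's make-up thus had more AP-2 alpha transcript relative to AP-2 gamma in each resistant line than in the parent, and the sums of VC-resistant and sensitive cells differed by less than the SD of the VC-resistant libraries.

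**Figure D2:**
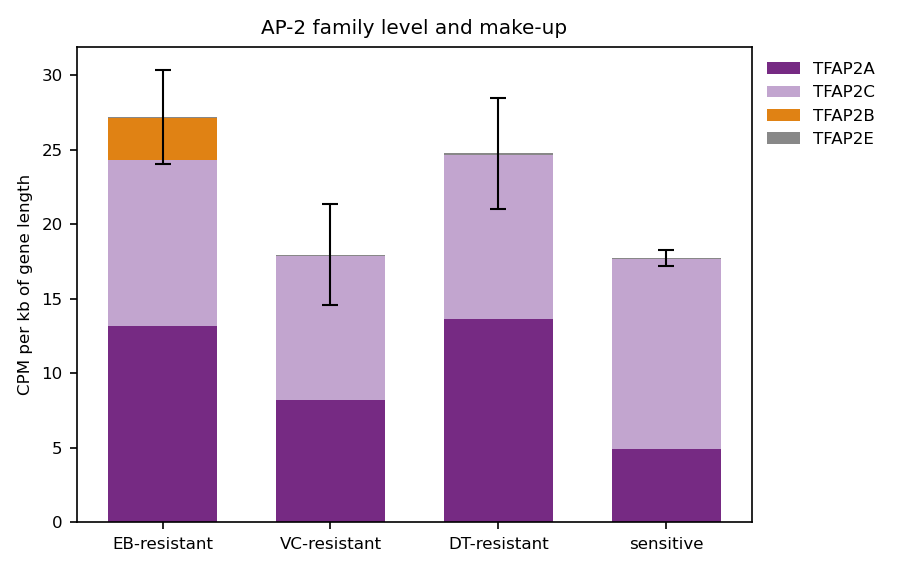
Summed level of the AP-2 family genes (vertical axis, CPM per kb of gene length, from 0) in the EB-resistant, VC-resistant, DT-resistant and sensitive lines, stacked by gene as the mean of 3 libraries, with whiskers for the SD of the sum. TFAP2A takes 27.6% of the bar in sensitive cells and between 45.8% and 55.3% in the resistant lines, and TFAP2B is seen in EB-resistant cells alone.

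SOX9, which directs neural crest and cartilage development and is also active in melanocytes (chr17:72121020-72126416, plus strand), fell in every resistant line. The EB-resistant replicates had 8.05, 7.55 and 7.84 CPM. The VC-resistant replicates had 20.99, 13.03 and 14.74 CPM, and the DT-resistant replicates 20.3, 14.8 and 13.1 CPM. The sensitive replicates had 75.9, 90.2 and 94.5 CPM. The EB-resistant libraries lay below all others, the VC-resistant and DT-resistant ranges coincided in large part, and the sensitive libraries stood well above. SOX9 fell by 3.47 on the log2 scale in EB-resistant (SE 0.19, adjusted p = 7.08e-09), by 2.42 in VC-resistant (SE 0.18, adjusted p = 2.32e-07) and by 2.43 in DT-resistant against sensitive cells (SE 0.18, adjusted p = 1.58e-07, all edgeR). The opposite-strand gene SOX9-AS1 had 31 counts in the 12 libraries, against 17882 for SOX9.

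SOX2, a factor of pluripotent and neural stem cells and of Schwann cell precursors (chr3:181711925-181714436, plus strand), was low throughout and differed between the resistant lines. It had 0 counts in each EB-resistant library. It had 15, 33 and 13 counts in the VC-resistant replicates 2, 5 and 6 and 1, 2 and 1 counts in the DT-resistant replicates. Sensitive replicates had 44, 59 and 53 counts. The VC-resistant libraries lay between the sensitive libraries and those of the other resistant lines, without overlap. SOX2 was at least 17.6-fold lower in EB-resistant than in sensitive cells (adjusted p = 1.33e-06, edgeR), against a limit of 3 counts per EB-resistant library. It fell by 5.09 on the log2 scale in DT-resistant against sensitive cells (SE 0.57, adjusted p = 5.62e-06, edgeR), with means of 0.0295 ± 0.0127 CPM in DT-resistant and 1.09 ± 0.118 CPM in sensitive cells (SD, n = 3 each). The fall in VC-resistant against sensitive cells was 1.27 on the log2 scale (SE 0.38, adjusted p = 0.0118, edgeR) and did not pass the test without VC-resistant replicate 6 (-0.94, adjusted p = 0.0562). SOX2 lies inside the same-strand lncRNA SOX2-OT, which had 50 counts in the 12 libraries against 221 for SOX2.

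NGFR, the low-affinity neurotrophin receptor and a marker of neural crest stem cells (chr17:49495293-49515008, plus strand), also fell in every resistant line. It had 3, 7 and 4 counts in EB-resistant replicates 2, 5 and 6, 10, 7 and 8 counts in VC-resistant replicates and 16, 6 and 4 counts in DT-resistant replicates. The sensitive replicates had 91, 99 and 74 counts. No resistant library came near the lowest sensitive one. NGFR passed the filter on low counts mainly through the sensitive libraries, so its place among the tested genes already follows from them. NGFR fell by 4.22 on the log2 scale in EB-resistant (SE 0.43, adjusted p = 7.32e-07), by 3.31 in VC-resistant (SE 0.39, adjusted p = 5.44e-06) and by 3.26 in DT-resistant against sensitive cells (SE 0.39, adjusted p = 4.43e-06, all edgeR). DT-resistant replicate 2 held most of that line's counts, and without it the log2 fold change was -4.002.

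**Figure D3:**
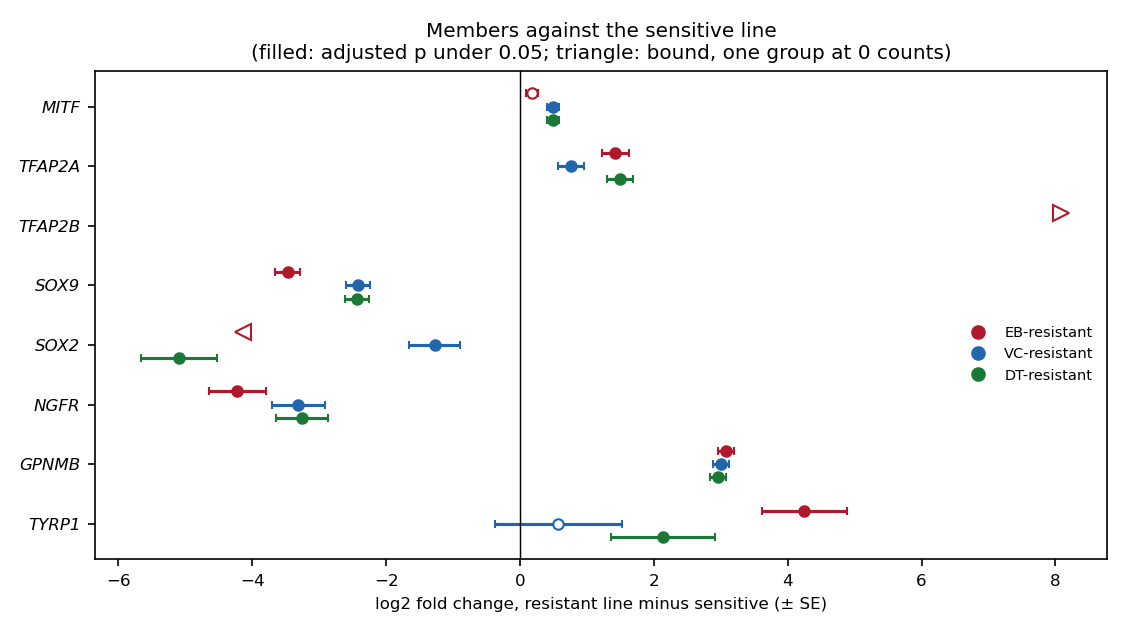
Log2 fold change (horizontal axis) of each member in the EB-resistant, VC-resistant and DT-resistant lines against the sensitive line, with whiskers for 1 SE. Filled points passed the test at an adjusted p of 0.05, open points did not, and open triangles are bounds where a group had 0 counts, which for TFAP2B is a level at least 271-fold higher and for SOX2 at least 17.6-fold lower in EB-resistant cells. GPNMB is near 3 in each line, and SOX9 and NGFR are below -2 in each.

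The resistant lines were also set against each other, which leaves the sensitive libraries out of the contrast. In EB-resistant against VC-resistant cells 3 members were higher and 3 lower, where 29.6% of all genes were higher and 28.8% lower (58.4% in either direction). In EB-resistant against DT-resistant cells 2 were higher and 2 lower, where 28.4% of all genes were higher and 28.8% lower (57.2% in either direction). In VC-resistant against DT-resistant cells 1 was higher and 1 lower, where 7.08% of all genes were higher and 8.71% lower (15.8% in either direction). The ranges did not overlap for 7 members between EB-resistant and VC-resistant cells (66.0% of all genes), for 5 between EB-resistant and DT-resistant cells (64.2%) and for 3 between VC-resistant and DT-resistant cells (30.5%). MITF and SOX9 were lower in the EB-resistant line than in each of the other resistant lines, and TFAP2B and TYRP1 were higher. TFAP2B and TYRP1 were among the tested genes because of the EB-resistant libraries, so their calls are no separate support for that difference.

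MITF was lower in EB-resistant than in VC-resistant cells (log2 fold change -0.32, SE 0.093, adjusted p = 0.00881, edgeR) and lower than in DT-resistant cells (-0.31, SE 0.093, adjusted p = 0.00944, edgeR). SOX9 was lower in EB-resistant than in VC-resistant cells (-1.05, SE 0.18, adjusted p = 2.67e-04, edgeR) and than in DT-resistant cells (-1.04, SE 0.18, adjusted p = 3.11e-04, edgeR). TYRP1 was higher in EB-resistant than in VC-resistant cells (3.67, SE 0.60, adjusted p = 8.41e-05, edgeR), a value that moved to 4.45 without VC-resistant replicate 6. It was also higher than in DT-resistant cells (2.10, SE 0.50, adjusted p = 0.002, edgeR), a value that moved to 2.71 without DT-resistant replicate 6. For SOX2, EB-resistant cells were at least 7.30-fold below VC-resistant cells (adjusted p = 1.99e-05, edgeR), and no fold is given between EB-resistant and DT-resistant cells because both were at or under the detection limit. SOX2 was higher in VC-resistant than in DT-resistant cells by 3.82 on the log2 scale (SE 0.62, adjusted p = 9.75e-04, edgeR).

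TFAP2A was higher in EB-resistant than in VC-resistant cells by 0.66 (SE 0.20, adjusted p = 0.0128, edgeR), and this call was lost without EB-resistant replicate 5 (0.56, adjusted p = 0.0548), VC-resistant replicate 5 (0.55, adjusted p = 0.0596) or VC-resistant replicate 6 (0.53, adjusted p = 0.058). It was lower in VC-resistant than in DT-resistant cells (-0.73, SE 0.20, adjusted p = 0.0267, edgeR), and this call was lost without VC-resistant replicate 5 (-0.63, adjusted p = 0.109), VC-resistant replicate 6 (-0.60, adjusted p = 0.112) or DT-resistant replicate 2 (-0.51, adjusted p = 0.101). With the replicate number as a block the difference was -0.73 (adjusted p = 0.0147, edgeR), and TFAP2A was lower in VC-resistant than in DT-resistant cells in each of the 3 same-numbered pairs. EB-resistant and DT-resistant cells differed by -0.07 (SE 0.19, adjusted p = 0.784, edgeR). GPNMB differed by 0.07 between EB-resistant and VC-resistant, 0.12 between EB-resistant and DT-resistant and 0.05 between VC-resistant and DT-resistant cells, each with an SE of 0.11 and none past the test (adjusted p = 0.595, 0.369 and 0.829, edgeR). NGFR did not pass the test between resistant lines either (adjusted p = 0.163, 0.142 and 0.971, edgeR), with differences of -0.91, -0.96 and -0.05 in the same order. Between VC-resistant and DT-resistant cells MITF differed by 0.00 (SE 0.093), SOX9 by 0.01 (SE 0.18) and TYRP1 by -1.57 (SE 0.72, adjusted p = 0.168, edgeR).

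Genes around the members were read from lists, described by their counts and median log2 fold change against sensitive cells beside the median of all genes, which lay between -0.01 and 0.00. The counts of every list are to be read against the shares of all genes tested. Those were 28.5% higher and 27.6% lower in EB-resistant, 27.6% and 27.4% in VC-resistant and 29.8% and 29.3% in DT-resistant cells. Of 24 tested genes of melanocyte differentiation, pigment and melanosome transport, 10 rose and 7 fell in EB-resistant, 8 rose and 9 fell in VC-resistant and 8 rose and 9 fell in DT-resistant cells, with medians of 0.15, 0.17 and 0.09. PIR, an iron-binding nuclear protein, rose in all 3 lines (2.45, 1.43 and 1.94). MLPH, which links melanosomes to myosin, fell in all 3 (-1.75, -3.03 and -2.77). The protease CTSK and the phosphatase ACP5 rose in EB-resistant cells (1.25 and 3.28) and fell in VC-resistant (-2.77 and -1.75) and DT-resistant cells (-2.37 and -3.81). The survival gene BCL2A1 had 2 counts over the EB-resistant libraries and 2598 over the sensitive ones.

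Of 19 tested factors that act on MITF transcription or partner its protein, 8 rose and 4 fell in EB-resistant, 9 rose and 3 fell in VC-resistant and 5 rose and 3 fell in DT-resistant cells, with medians of 0.28, 0.25 and 0.10. KIT, the receptor for stem cell factor, rose in EB-resistant cells to 57.73 ± 7.202 CPM and in VC-resistant cells to 11.1 ± 1.49 CPM, against 4.55 ± 1.63 CPM in sensitive cells. LEF1, a Wnt effector at the MITF promoter, fell in EB-resistant (-1.72) and DT-resistant cells (-1.65), and CTNNB1, which encodes beta-catenin, fell in all 3 lines (-0.31, -0.65 and -0.47). The repressor ZEB1 fell in EB-resistant (-1.36), VC-resistant (-0.48) and DT-resistant cells (-0.29), and ZEB2 rose in EB-resistant (0.59) and VC-resistant cells (0.52). TFEB, a lysosomal relative of MITF, rose in EB-resistant (1.45), VC-resistant (0.66) and DT-resistant cells (1.41), and the endothelin receptor EDNRB rose in VC-resistant cells (1.496).

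Of 23 lysosomal targets of the MITF family and partners of GPNMB, 12 rose and 3 fell in EB-resistant, 11 rose and 6 fell in VC-resistant and 13 rose and 4 fell in DT-resistant cells, with medians of 0.36, 0.16 and 0.50. The autophagy receptor SQSTM1 rose in EB-resistant cells to 1818 ± 152 CPM against 431 ± 40.7 CPM in sensitive cells, and by 0.52 in VC-resistant and 0.76 in DT-resistant cells. The protease CTSD rose in EB-resistant (0.94), VC-resistant (0.36) and DT-resistant cells (0.57). LAMP2, a lysosomal membrane protein, rose by 0.78, 1.33 and 1.54 in the same order, and FNIP1, a partner of folliculin, by 0.62, 0.92 and 1.03. CTSK stands in both this list and that of melanocyte genes. The GPNMB partners ITGB1, SDC4 and CD44, which encode adhesion receptors, did not move alike. ITGB1 fell in EB-resistant (-0.51) and VC-resistant cells (-0.24) and rose in DT-resistant cells (0.20). SDC4 rose in EB-resistant (0.36) and DT-resistant cells (0.497) and fell in VC-resistant cells (-0.51). CD44 fell in EB-resistant (-0.33), VC-resistant (-0.33) and DT-resistant cells (-0.64).

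**Figure D4:**
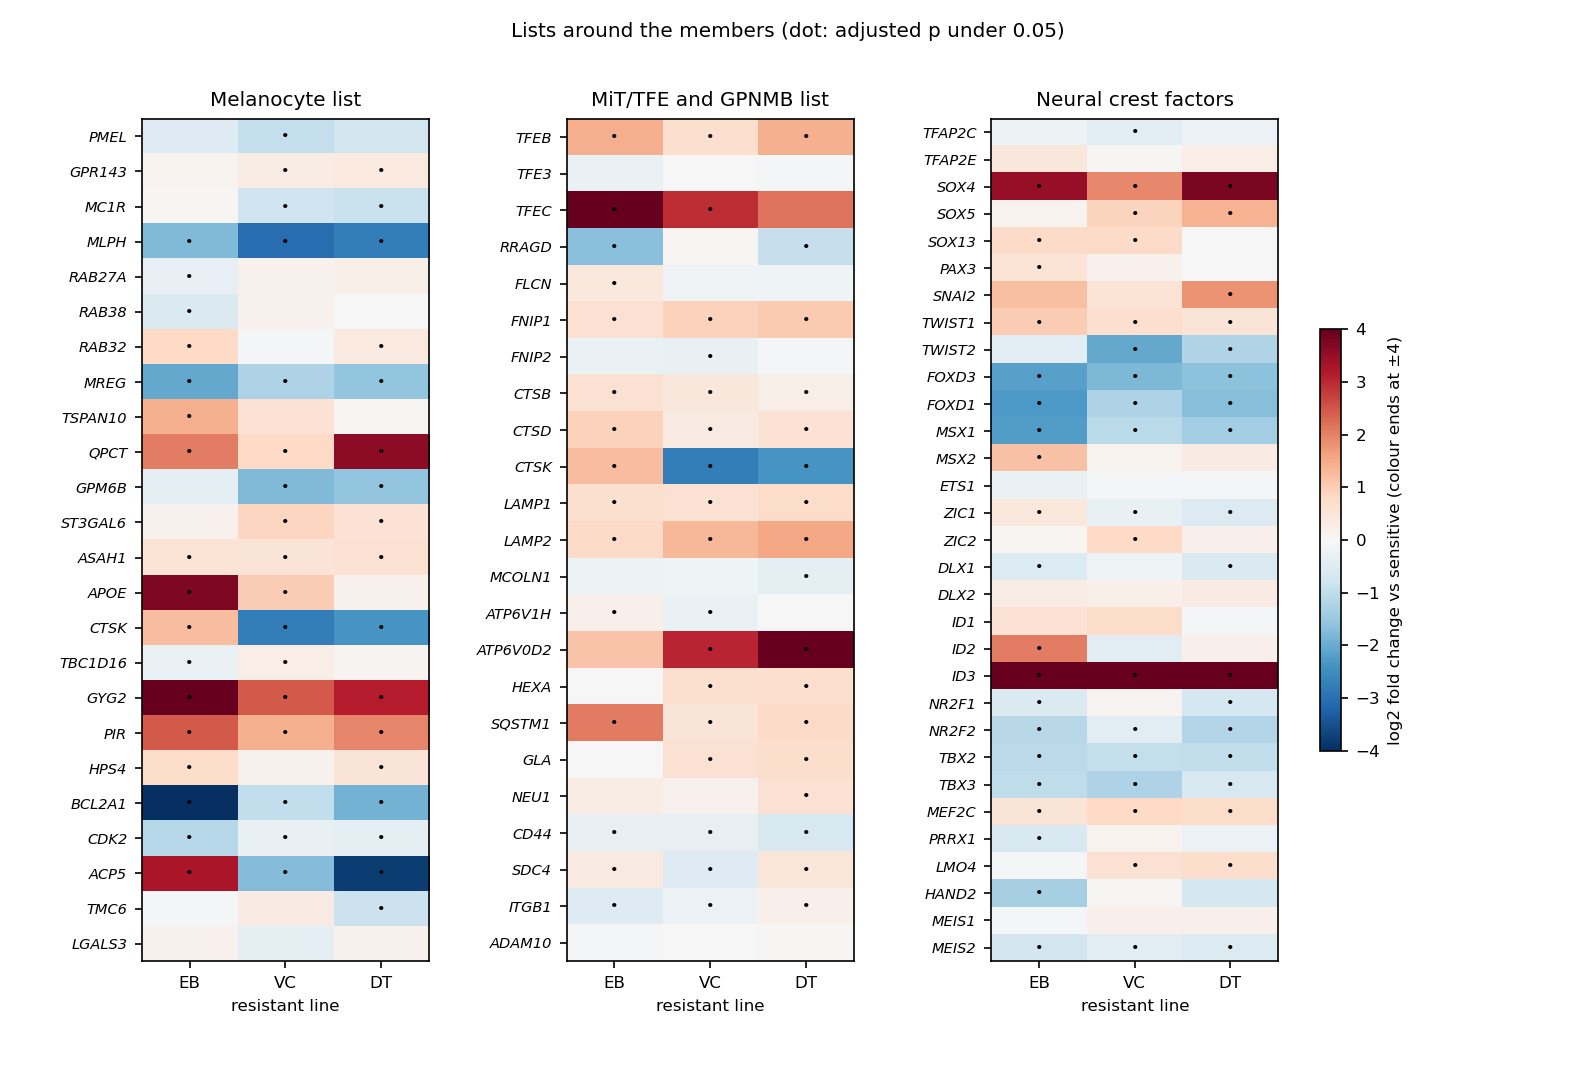
Log2 fold change against the sensitive line (colour, red higher and blue lower, ending at 4 and -4) in the EB-resistant, VC-resistant and DT-resistant lines for tested genes of the melanocyte list, the MITF family and GPNMB list and the list of neural crest factors. Dots mark an adjusted p under 0.05. ID3 and SOX4 are red and FOXD1, FOXD3 and MSX1 blue in all 3 lines, while CTSK and ACP5 are red in EB-resistant cells and blue in the other 2.

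Of 31 tested neural crest transcription factors other than the members, 9 rose and 11 fell in EB-resistant, 8 rose and 10 fell in VC-resistant and 7 rose and 11 fell in DT-resistant cells, with medians of -0.05, 0.10 and -0.06. ID3, an inhibitor of helix-loop-helix factors, rose in EB-resistant (4.70), VC-resistant (4.74) and DT-resistant cells (4.56). SOX4, a relative of the SOX members, rose in EB-resistant (3.49), VC-resistant (1.91) and DT-resistant cells (3.77). FOXD1, a forkhead factor, fell in EB-resistant (-2.30), VC-resistant (-1.22) and DT-resistant cells (-1.70), and MSX1, a homeobox factor, fell in all 3 lines (-2.25, -1.07 and -1.40). Of 8 tested AP-2 cofactors and inhibitors, 2 rose and 3 fell in EB-resistant, 4 rose and 3 fell in VC-resistant and 2 rose and 3 fell in DT-resistant cells, with medians of -0.22, 0.06 and 0.04. The coactivator CITED2 rose in each line (2.10, 0.99 and 0.58), and the AP-2 inhibitor KCTD15 rose in EB-resistant (0.69) and fell in VC-resistant (-0.37) and DT-resistant cells (-0.31).

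Of 16 tested NGFR ligands, co-receptors and adaptors, 9 rose and 4 fell in EB-resistant, 9 rose and 5 fell in VC-resistant and 9 rose and 4 fell in DT-resistant cells, with medians of 0.43, 0.55 and 0.53. SORT1, a sorting receptor that pairs with NGFR, rose in EB-resistant (0.43), VC-resistant (0.90) and DT-resistant cells (0.72). RTN4R, a Nogo receptor that pairs with NGFR, rose in EB-resistant (3.06) and VC-resistant cells (1.31). The ligand NTF3 fell in EB-resistant cells (-1.15) and rose in VC-resistant (0.84) and DT-resistant cells (1.23). Of 11 tested genes of the neural crest stem cell-like melanoma state, 5 rose and 3 fell in EB-resistant, 2 rose and 4 fell in VC-resistant and 5 rose and 1 fell in DT-resistant cells, with medians of 0.21, -0.14 and 0.53. NES, which encodes the intermediate filament nestin, fell in EB-resistant (-2.24) and VC-resistant cells (-6.19), and had 3 counts over the DT-resistant libraries against 639 over the sensitive ones, a ratio of 203 (95% exact interval 69.2 to 988). The adhesion gene CADM1 rose in EB-resistant (1.84) and DT-resistant cells (2.29) and fell in VC-resistant cells (-1.02). Of 17 tested genes of the dedifferentiated melanoma state, 6 rose and 9 fell in EB-resistant, 5 rose and 6 fell in VC-resistant and 8 rose and 7 fell in DT-resistant cells, with medians of -0.49, -0.19 and 0.24. AXL, a receptor kinase, fell in all 3 lines (-0.82, -0.55 and -0.64), and FOSL1, an AP-1 subunit, fell in EB-resistant (-0.97) and DT-resistant cells (-1.59). In contrast, LOXL2 rose in all 3 lines (0.52, 0.56 and 1.195), and NRG1 rose in EB-resistant (1.82) and VC-resistant cells (0.68). INHBA fell in EB-resistant (-1.43) and rose in DT-resistant cells (1.925).

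Of 8 tested cartilage and matrix targets of SOX9, 2 rose and 3 fell in EB-resistant, 2 rose and 2 fell in VC-resistant and 3 rose and 1 fell in DT-resistant cells, with medians of 0.40, 0.19 and 0.57. CHST11, a chondroitin sulfotransferase, fell in EB-resistant (-2.42), VC-resistant (-0.78) and DT-resistant cells (-0.70), and the collagen gene COL11A1 rose in VC-resistant (5.54) and DT-resistant cells (3.13), with 2.08 and 0.393 CPM against 0.0429 CPM in sensitive cells. Only 3 partners of SOX2 in stem cells were tested, of which 0 rose and 1 fell in EB-resistant (LIN28B, -0.37), 0 rose and 1 fell in VC-resistant (KLF4, -0.63) and 1 rose and 1 fell in DT-resistant cells (SALL4, 1.10, and KLF4, -0.84), with medians of -0.37, -0.07 and 0.09. Of 9 tested neighbours and overlapping transcripts of the members, 1 rose and 3 fell in EB-resistant, 1 rose and 2 fell in VC-resistant and 1 rose and 2 fell in DT-resistant cells, with medians of -0.06, -0.01 and 0.07. FRMD4B, beside MITF, fell in EB-resistant (-1.94), VC-resistant (-1.18) and DT-resistant cells (-2.90).

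The melanocyte label was set against 13 markers, of which 9 have values in the table. TYR, OCA2, SLC45A2 and S100B have none. The lowest total of any gene with values was 11 counts over the 12 libraries, and why these markers lack values was not tested. MITF and TYRP1 are both members and markers, so the set is not independent of the members. MITF, the pigment-cell receptor GPR143 and the neural crest factor PAX3 were expressed in every group. The structural melanosome gene PMEL had 76, 55 and 62 counts over the EB-resistant, VC-resistant and DT-resistant libraries and 107 over the sensitive ones, and the pigment enzyme DCT had 11, 15 and 10 counts in the resistant lines and 1 in the sensitive line. With TYRP1, these pigment genes were near the detection limit in all 4 groups. The lines thus carried MITF, GPR143 and PAX3 transcripts but little of these pigment genes, and SOX10, a further lineage factor, was not analysed. The summed level of the melanocytic markers ran from 163.5 to 178.4 CPM in EB-resistant, 128.0 to 148.5 in VC-resistant, 118.2 to 133.2 in DT-resistant and 91.6 to 105.8 CPM in sensitive libraries. KIT, one of these markers, averaged 57.73 CPM in EB-resistant, 11.1 CPM in VC-resistant, 3.65 CPM in DT-resistant and 4.55 CPM in sensitive cells. It was the main source of the larger EB-resistant sum. The member MITF averaged 53.32, 66.41, 66.31 and 47.15 CPM in the same order, and is a large part of each sum. Among resistant lines, EB-resistant cells were also lowest for GPR143 (27.18, 30.19 and 32.69 CPM) but highest for PAX3 (30.67, 23.8 and 21.12 CPM). The sum of 9 fibroblast markers, which dedifferentiated melanoma cells can also express, ran from 528.1 to 591.5, 281.3 to 314.4 and 361.8 to 468.1 CPM in EB-resistant, VC-resistant and DT-resistant libraries and from 110.3 to 149.0 CPM in sensitive ones, with DCN at 0 in sensitive and COL1A2 at 0 in DT-resistant cells. Sums ran from 86.3 to 112.6, 116.3 to 125.3 and 122.1 to 129.7 CPM in the resistant lines and 113.3 to 137.3 CPM in sensitive cells for the 6 Schwann and glial markers with values, and from 70.9 to 88.0, 57.8 to 63.5 and 26.2 to 34.1 CPM in the resistant lines and 81.4 to 102.3 CPM in sensitive cells for endothelial markers. These sums rested on few genes. Among fibroblast markers, THY1 averaged 409.5, 277.4 and 248.3 CPM in EB-resistant, VC-resistant and DT-resistant cells and 127 CPM in sensitive cells. In the same order, LUM averaged 49.81, 14.74, 145 and 0.916 CPM, PDGFRB 74.47, 2.598, 2.493 and 0.784 CPM, and COL1A1 17.94, 0.6031, 3.574 and 0.3253 CPM. COL1A2, PDGFRA and DCN averaged at most 0.146 CPM. Of 6 tested fibroblast markers, 6 rose in EB-resistant, 4 rose and 1 (FAP) fell in VC-resistant and 5 rose in DT-resistant cells. Of all genes tested, 28.5%, 27.6% and 29.8% rose. The endothelial marker TIE1 averaged 79.85, 57.31 and 23.35 CPM in EB-resistant, VC-resistant and DT-resistant cells and 92.53 CPM in sensitive cells. The glial marker MBP averaged 37.25, 75.85, 85.69 and 92.24 CPM, and PMP22 59.62, 42.13, 39 and 29.7 CPM. Keratinocyte markers summed to between 16.1 and 23.9 CPM and leukocyte markers to between 0.157 and 1.36 CPM over all libraries. The part of other cell types in the members' changes was not tested, and in bulk RNA fewer cells of a type and less RNA per cell cannot be told apart.

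The genes whose log2 CPM followed each member most closely over the 12 libraries were sought among 13845 genes, by Pearson's r, which here mostly reflects the differences between the 4 groups. An r of at least 0.95 was reached by 199 genes for GPNMB, 163 for TFAP2B, 85 for SOX9 and 66 for TFAP2A. It was reached by 39 for SOX2, 32 for NGFR and 3 for MITF. Except for MITF, the genes named are thus a few of many. GPNMB was followed by EDIL3 (r = 0.996), PCDH18 (0.994) and CASP1 (0.991), of which EDIL3 averaged 512.6, 428.1 and 500.2 CPM in EB-resistant, VC-resistant and DT-resistant cells and 25.7 CPM in sensitive cells. SOX9 was followed by FXYD5 (r = 0.994), SOCS2 (0.989) and PIGF (0.984). TFAP2A was followed by KDM5B (r = 0.985), IL12RB1 (0.984) and PRICKLE2 (0.981). TFAP2B was followed by LINC00968, ATP10A and B4GALNT4, which like it were at 0 or nearly so outside EB-resistant cells. SOX2 was followed by C1orf21 (r = 0.988), COL13A1 (0.980) and STRIP2 (0.977), and NGFR by DAP (0.979), FOXD3 (0.978) and TRBC2 (0.978). FOXD3, a forkhead factor of the neural crest, averaged 0.608, 0.798 and 0.894 CPM in EB-resistant, VC-resistant and DT-resistant cells and 2.77 CPM in sensitive cells. For MITF the highest values were those of CEP85 (r = 0.955) and HSP90AB1 (0.953). TYRP1, under 1 CPM in every group, was not searched.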

How the data were processed

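Poly(A) RNA was sequenced from strand-specific libraries, per the labels' protocols. The deposited tables hold integer gene counts and the authors' normalised counts, a signal that equals the count over a size factor within 0.068. The submitters' processing notes name bcl2fastq 2.20.0, STAR 2.7.10b, featureCounts 2.0.1, DESeq2 1.38.3 and hg38, and the strand setting, annotation release and doses were not stated. The 12 libraries all matched a sample, and 0 pairs of libraries were identical.

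Counts were filtered with filterByExpr, scaled by TMM and fitted in edgeR 4.0.16 (R 4.3.3, limma 3.58.1) with a mean per group over 12 libraries (8 residual degrees of freedom). Quasi-likelihood F-tests were adjusted by Benjamini-Hochberg over 17114 genes, with a threshold of 0.05. The standard error (SE) is the log2 fold change over the root of F. CPM use TMM-scaled totals, and CPM per kb the gene lengths of the table. Groups at 0 were bounded at 3 counts per library, and bounds and intervals cover counting error only. Genes were named from each list as up to 2 per direction in each comparison with sensitive cells, by adjusted p. Some are also given in a line where the rule did not name them. Some genes within the rule are not reported here. Genes that follow a member were ranked on log2 CPM with a prior count of 2, among genes with a mean of at least 1 CPM in a group.

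Same-numbered VC-resistant and DT-resistant libraries deviated together from their group means (r of 0.337, 0.151 and 0.195), so the data pair these lines by number. No other pair of groups had every r above 0.1. The tests and shares of all genes reported for VC-resistant against DT-resistant cells leave that pairing out, unless the replicate block is named. The members and lists were chosen with earlier results of these data known. Alternatives were DESeq2 1.42.0, median-of-ratios size factors, no filter, fits of 2 groups, the replicate block, leaving out each library and, added after seeing the data, the ratio of the authors' normalised counts. In a test on simulated data for EB-resistant against sensitive cells (16337 genes, 50 changed at each size), a fit of those 2 groups alone recovered 30 genes at 1.5-fold, 36 at 2-fold, 47 at 4-fold and 49 at 8-fold, and made 9 false calls. Only 200 genes were changed there, whereas 56.1% of genes were called in the data, so these rates need not hold for the 4-group tests reported. Figures were drawn with matplotlib 3.10.9.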

Additional observations from a re-analysis of the deposited data

Results flagged for a closer look

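None of the 8 members moved in opposite directions in 2 resistant lines, but 9 of the genes that the naming rule picks from the pathway lists did, each with the difference between the lines itself past edgeR's quasi-likelihood test. Other list genes, outside the naming rule or among the cell type and state markers, also passed the test with opposite signs in a pair of lines and are not given here. CTSK was higher in EB-resistant than in VC-resistant cells by a log2 fold change of 4.02 and than in DT-resistant cells by 3.62. ACP5 was higher in EB-resistant than in VC-resistant cells by 5.03 and than in DT-resistant cells by 7.09. KCTD15 was higher in EB-resistant than in VC-resistant cells by 1.05 and than in DT-resistant cells by 1.00. NTF3 was lower in EB-resistant than in VC-resistant cells (-1.99) and than in DT-resistant cells (-2.39). BEX1, an NGFR adaptor, was higher in EB-resistant than in VC-resistant cells by 6.80 and than in DT-resistant cells by a fitted 10.78, with 6307 counts over the EB-resistant and 3 over the DT-resistant libraries, a ratio of 1973 (95% exact interval 675 to 9570). CADM1 was higher in EB-resistant than in VC-resistant cells by 2.86 and lower in VC-resistant than in DT-resistant cells (-3.31). INHBA, the activin subunit gene, was lower in EB-resistant than in DT-resistant cells (-3.36). SDC4 was higher in EB-resistant than in VC-resistant cells by 0.87 and lower in VC-resistant than in DT-resistant cells (-1.01). ITGB1 was lower in EB-resistant than in DT-resistant cells (-0.72) and in VC-resistant than in DT-resistant cells (-0.44). Each of these genes passed the test against sensitive cells with opposite signs in the 2 lines named.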

How the results depend on the processing

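The calls of the members against sensitive cells were the same under median-of-ratios size factors, no filter, DESeq2, fits of 2 groups and the replicate block, except that TYRP1 was not tested in the 2-group fit of DT-resistant and sensitive cells, which left 3 members higher. TFAP2A in VC-resistant against DT-resistant cells lost its call with no filter (-0.73, adjusted p = 0.062) and in the 2-group fit (-0.73, adjusted p = 0.0802), so 0 members were then lower. Leaving out single libraries gave 0 to 1 members lower in that comparison, and 756 to 1223 genes higher and 966 to 1596 lower over the whole table, where all libraries gave 1211 and 1491, and the lowest counts were those without VC-resistant replicate 6. Without single libraries, TFAP2A in EB-resistant against DT-resistant cells ran from -0.19 to 0.14 and TYRP1 in VC-resistant against sensitive cells from -0.21 to 1.04. In VC-resistant against DT-resistant cells, MITF ran from -0.071 to 0.050, SOX9 from -0.21 to 0.22, NGFR from -0.36 to 0.70 and GPNMB from -0.054 to 0.18, and none of these passed the test. MITF in that comparison was also -0.0022 with median-of-ratios size factors, -0.0026 with no filter, -0.0041 with DESeq2 and -0.0035 from the authors' normalised counts, and NGFR was 0.0058 with the replicate block, in which no call of a member changed. The cause was not tested. The 3 genes nearest to MITF, TFAP2A, SOX2 and NGFR changed when some single libraries were left out. Counts near 0 limit TYRP1, SOX2 and NGFR.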
